A study of Mus musculus with 10 samples.

Results

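The cells described here are injured retinal ganglion cells (RGCs) in which no Atf3 transcript was counted, set beside injured RGCs of the same captures with abundant Atf3. Members were chosen by their Atf3 count and their depth. They came from injured libraries 1, 2 and 3, held at least 8000 UMIs (unique molecular identifiers, each a counted transcript), and were called Atf3-negative at 0 Atf3 UMIs and Atf3-high at 5 or more Atf3 UMIs per 10000 UMIs of the cell. Those libraries held 1138 of the 3292 cells of the series, and 1017 of the 1138 reached that depth. Of the 1017, 99 were negative (9.73%), 555 were high (54.6%) and 363 (35.7%) lay between and were kept apart as a middle class. Injured 1, 2 and 3 gave 23, 21 and 55 negative cells and 184, 134 and 237 high cells.

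The series profiled RGCs from adult 129S1/SvImJ mice of both sexes at 12 weeks of age in 10 droplet-based single-cell libraries, 6 from uninjured retinas and 4 from retinas taken 2 weeks after optic nerve crush (ONC), which severs RGC axons. Cells were captured with antibodies to Thy1 once macrophages and, by the study's methods, amacrine cells had been panned away, and each batch pooled 10 retinas, so a library is a mixture of animals and of surviving cells. The labels name no transgene or injected agent for any of these libraries. The study itself asked whether raising the V-ATPase subunit Atp6v0c helps injured RGCs survive and regrow axons. The comparison made here uses its injured cells to ask how RGCs with no Atf3 counted differ from those with abundant Atf3.

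Atf3 is a transcription factor of the ATF and CREB family that pairs with Jun and other members of the AP-1 group. It is almost silent in resting neurons and is switched on when an axon is cut, through the kinases DLK and JNK, and by the integrated stress response through Atf4, after which it takes part in a programme of growth and stress genes. RGCs comprise many subtypes, and the melanopsin cells, which carry the photopigment Opn4 and sense light themselves, are known to withstand axon injury better than most.

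The injured libraries did not stand alike. Injured 3 and injured 4 shared 421 cell barcodes, whereas 43 of the other 44 pairs of libraries shared none and the remaining pair shared 1, so injured 4 repeats the capture of injured 3 and was kept out of the comparisons. Xist, the RNA of the inactive X chromosome of female cells, reached 638, 695 and 0 CPM (UMIs per 1000000 UMIs of the summed cells) in negative cells of injured 1, 2 and 3 and 598, 563 and 0 in high cells, and 0 to 0.173 (median 0) in the uninjured libraries. A transcript named mCherry, a red fluorescent reporter, was counted in 1, 1 and 41 negative cells (4.35, 4.76 and 74.5%) and in 7.07, 11.9 and 94.1% of high cells. In CPM it held 3.41, 30.5 and 2338 in negative and 63.5, 124 and 2258 in high cells, a difference that did not pass (log2 fold change -1.01, adjusted p 0.112) but did without injured 3 (-2.62), and Xist did not pass either (0.10, adjusted p 0.836). Injured 3 thus stood apart from injured 1 and 2 in both, and within each library the negative and high cells lay on the same side. Cells with under 1% of UMIs from ribosomal protein genes numbered 20 of 55 negative cells in injured 3 (36.4%, 95% Wilson interval 24.9 to 49.6%) and 0 of 23 and 0 of 21 in injured 1 and 2, beside 13 of 237 high cells (5.49%) and 39 of 168 middle cells (23.2%) of injured 3, and the results that follow were also computed without such cells and without injured 3.

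Negative cells were shallower than high cells, with median totals of 11906, 11699 and 11951 UMIs against 16465, 17033 and 18208, and uninjured libraries lay between 20817 and 34678. After every cell was thinned at random to 8000 UMIs, negative cells held a median of 3380, 3379 and 3467 genes and high cells 3276, 3277 and 3327, so their transcript diversity was not lower. By the median over cells, mitochondrial genes took 2.70, 2.86 and 1.60% of UMIs in negative cells and 3.26, 3.47 and 1.68% in high cells. Ribosomal protein genes took, by the same median, 4.73, 4.90 and 4.03% against 5.59, 5.89 and 5.58%. Negative medians lay below high medians in each library for both measures.

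As a description of the selection, Atf3 reached 1101, 1155 and 1166 CPM in high cells, and the whole uninjured libraries held 0 to 2.64 (median 0.584) CPM. Just outside the negative class lay 19, 19 and 27 cells with a single Atf3 UMI, the lowest at 0.315, 0.271 and 0.393 per 10000. The highest cell below the high class reached 4.95, 4.97 and 4.97 per 10000 and the lowest inside it 5.03, 5.08 and 5.01, with 20, 21 and 36 cells between 4 and 5 and 27, 18 and 43 between 5 and 6. The shallowest negative cells held 8131, 8044 and 8171 UMIs, and 8, 7 and 23 further cells with 0 Atf3 UMIs fell below the minimum depth. When all cells were thinned to 8000 UMIs, 14, 8 and 16 middle cells and no high cell dropped to 0 Atf3 UMIs, an order that the rule for the classes itself sets.

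The repeat capture gave a second count of the same cells. Of the 55 negative cells of injured 3, 43 had a barcode in injured 4, where 33 again held 0 Atf3 UMIs, 7 held 1, the most was 2, and none reached 5 per 10000. Of the 237 high cells 209 were found again, 182 of them at 5 per 10000 or more and none at 0. By the rule applied to injured 4 itself, the 43 fell into 25 negative, 7 middle and 0 high cells and 11 under 8000 UMIs, and the 209 into 0 negative, 21 middle and 168 high cells and 20 under 8000 UMIs. These are counts of the gene that chose the cells, in the same capture, and are given as a description.

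Negative cells held the markers of RGCs. Rbpms, an RNA-binding protein used as a marker of RGCs in the retina, stood at 535, 473 and 577 CPM in negative cells, Slc17a6, the vesicular glutamate transporter, at 457, 397 and 397, and Sncg, gamma-synuclein, at 897, 1175 and 1343. Each was abundant in every library, although the authors used these same markers to identify their RGCs, so their presence is no separate check of the label. Lists for 13 other retinal and vascular classes were also read. All 7 cone, all 5 pericyte and all 4 red blood cell genes were at 0 in the negative cells, as were 6 of 9 rod, 7 of 11 microglia and macrophage, 4 of 6 endothelial, 3 of 5 astrocyte and 3 of 4 pigment epithelium genes. The amacrine list summed to 222, 233 and 184 CPM in negative and 119, 107 and 66.5 in high cells, with 2 of 3 genes tested higher and 1 lower and with Chat, Slc18a3 and Prdm13 at 0. Bipolar genes summed to 133, 263 and 197 against 117, 118 and 70.2 CPM, led by the kinase Prkca (197 against 101), the only bipolar gene tested and higher in negative cells, with Otx2, Cabp5, Vsx1 and Pcp2 at 0. Müller glia genes summed to 102.3, 111 and 137 against 176, 218 and 158 CPM, led by Dkk3, with 1 of 5 tested higher, 2 lower and Aqp4 at 0. Horizontal cell genes summed to 147, 214 and 122 against 250, 238 and 276 CPM, led by Tpm3, with 2 of 3 tested lower and Lhx1 at 0, and the oligodendrocyte list stayed at or under 17.3 CPM in negative cells with 0 of 1 gene called. Only the amacrine and bipolar sums lay above those of high cells in all 3 libraries, and Prdm13, Vsx1 and Otx2, transcription factors of those classes, were at 0. The part of these genes in the results was not tested. Leaving out the cells with 3 or more markers of another class, 2, 2 and 3 of the negative cells and 44, 39 and 65 of the high cells, kept the counts given next within 1.5-fold. No doublet caller was run, and the only step against doublets in the study's methods was an upper limit on UMIs per cell, so doublets among these cells cannot be told apart from RGCs with such transcripts. High cells also held more UMIs per cell, in which a marker could be counted.

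**Figure D1:**
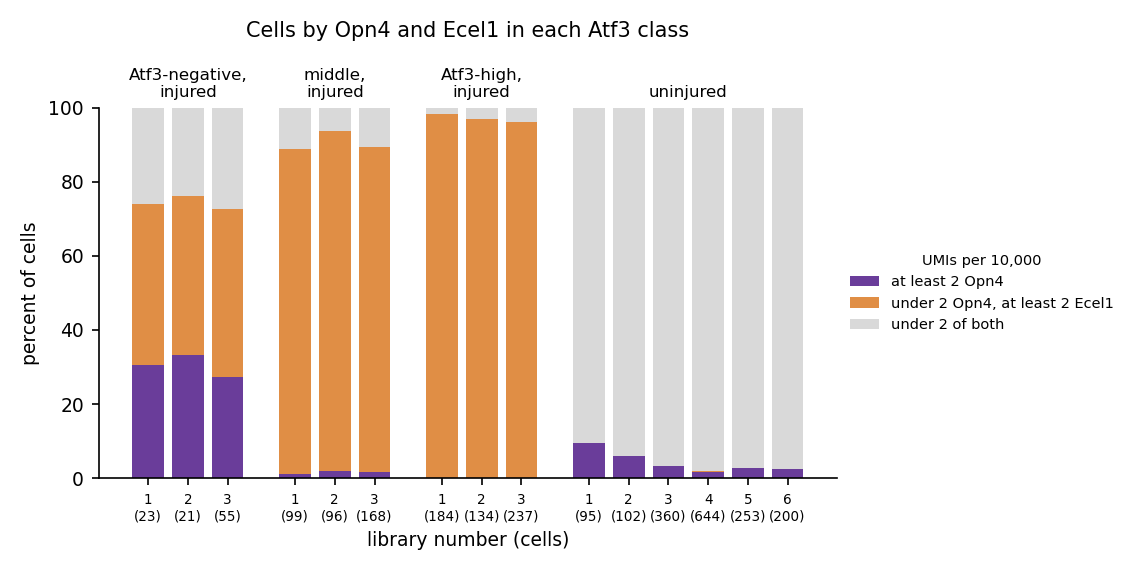
Percent of cells (vertical axis) in each Atf3 class and library that held at least 2 Opn4 UMIs per 10000, under that but at least 2 Ecel1 UMIs per 10000, or under 2 of both, with the library number and its cells under each bar. Opn4 cells filled 27.3 to 33.3% of the negative class and none of the high class, which was 96.2 to 98.4% Ecel1 cells.

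The negative class was a mixture of cells of different kinds. Cells with at least 2 Opn4 UMIs per 10000, called Opn4 cells, made up 29 of the 99 negative cells, or 7 of 23, 7 of 21 and 15 of 55 in injured 1, 2 and 3 (30.4, 33.3 and 27.3%). Another 44 (10, 9 and 25) held under 2 of Opn4 and at least 2 UMIs per 10000 of Ecel1, an endopeptidase made by injured neurons, and are called Ecel1 cells, and 26 (6, 5 and 15) held neither. Among high cells 0 of 555 were Opn4 cells, which allows a share of up to 0.541%, and 539 (97.1%) were Ecel1 cells. Middle cells resembled the high class, with 6 Opn4 cells (1.65%) and 322 Ecel1 cells (88.7%). These kinds and their thresholds were chosen after the values had been seen, so no test is given. Cells near the thresholds were few in the negative class, 6 with 1 to 3 Opn4 UMIs and 11 with 1 to 3 Ecel1 UMIs per 10000, and 2 cells, both in injured 3, held at least 2 of each.

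Seen from the other side, 35 of the 1017 injured cells were Opn4 cells (3.44%), 8, 9 and 18 by library, and 29 of the 35 had no Atf3 UMI counted (82.9%, 95% Wilson interval 67.3 to 91.9%). The other 6 were middle cells, and the highest Atf3 level in any Opn4 cell was 1.82, 0.515 and 0.848 per 10000 in injured 1, 2 and 3. Their median depths, 15075, 15067 and 13408 UMIs, were above those of the negative class as a whole. Uninjured libraries held 50 Opn4 cells of 1654 (3.02%), from 1.71% in uninjured 4 to 9.47% in uninjured 1. Intervals and limits for shares of cells cover counting error only.

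**Figure D2:**
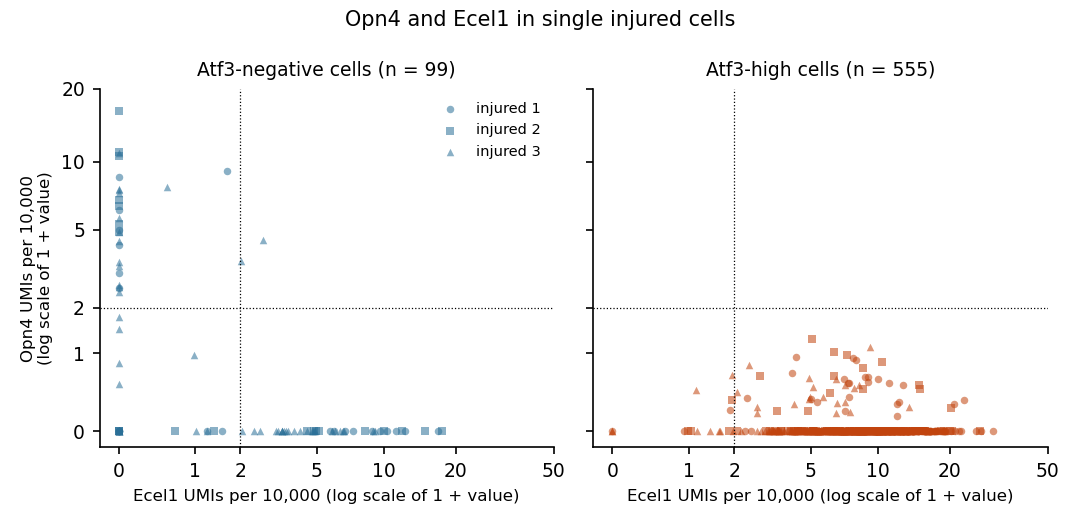
Opn4 against Ecel1 UMIs per 10000 in each Atf3-negative and Atf3-high injured cell, both axes on a log scale of 1 plus the value, with symbols by library and dotted lines at 2 per 10000. Negative cells lined either axis, high cells lay along the Ecel1 axis, and 2 negative cells passed both lines.

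The plot of Opn4 against Ecel1 showed the same kinds cell by cell. Opn4 cells of the negative class carried the melanopsin programme at 568, 806 and 549 CPM of Opn4 and 331, 287 and 269.9 of Eomes, the T-box factor of these cells. Opn4 cells of uninjured libraries held 623 to 951 CPM of Opn4. Injured 1 and 3 lay under every uninjured library and injured 2 among them. Since Opn4 itself chose these cells, the levels are descriptions.

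The 3 kinds of negative cell also differed in their injury genes. Jun, the AP-1 factor that DLK and JNK signalling raises in cut neurons, held 176, 148 and 265 CPM in negative Opn4 cells, 488, 576 and 303 in negative Ecel1 cells and 0 to 78.0 in uninjured Opn4 cells. Sox11, a growth-promoting transcription factor, held 51.7, 37.1 and 32.6, 1288, 1120.2 and 931 and 476, 199 and 307 CPM in the Opn4 cells, the Ecel1 cells and the cells with neither. Hrk, a BH3-only cell death protein, held 41.3, 27.8 and 93.1, 472, 352 and 427 and 112, 49.7 and 121 CPM in the same order, and 0 in uninjured Opn4 cells. For Sox11 and Hrk the Ecel1 cells lay above the other kinds in each library, and the Opn4 cells lay lowest. Jun and Hrk in negative Opn4 cells lay above every uninjured library's Opn4 cells, so these Atf3-negative cells still carried some injury transcripts. Gap43, a growth cone protein, stood at 641, 741 and 749 CPM in the Opn4 cells and 2384, 2091 and 1200.1 in the Ecel1 cells. Sprr1a was counted in 0 of the 29 Opn4 cells, and the Ecel1 cells held 8.0, 53.3 and 6.72 CPM, far under the high class even though they shared its Ecel1. Cartpt, a peptide of direction-selective cells, held 238, 961 and 1158 CPM in the remaining cells, 328, 32.0 and 108 in Ecel1 cells and 0, 0 and 4.65 in Opn4 cells. Creb5, a CREB family factor, was present in all 3 kinds at 207, 157 and 83.8, 376, 331 and 313 and 364, 464 and 389.7 CPM. The kinds also differed in their ribosomal UMIs. Cells with under 1% ribosomal UMIs, all of them in injured 3, made up 0 of 29 Opn4 cells, 12 of 44 Ecel1 cells and 8 of 26 cells with neither, or 0 of 15, 12 of 25 and 8 of 15 in that library. With 5 to 25 cells behind each value in the injured libraries these are descriptions, and no test was run between kinds.

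Set against the high cells of their own library, negative cells held less of most of the axon injury, stress and interferon genes tested. They held more of the melanopsin genes tested. Of 19 ion channel genes 9 were higher and 1 lower, and of 13 trophic genes 4 were higher and 5 lower. In the edgeR fit, with the library as a block, 2459 of 10980 genes passed an adjusted p of 0.05 (22.4%), 1288 higher in negative cells (11.7%) and 1171 lower (10.7%), and 1475 of these differed at least 2-fold, 831 higher and 644 lower. The median log2 fold change over all genes was -0.005, which is the background for each list described next. DESeq2 called 1319 genes. Leaving out injured 3 gave 1585 genes.

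**Figure D3:**
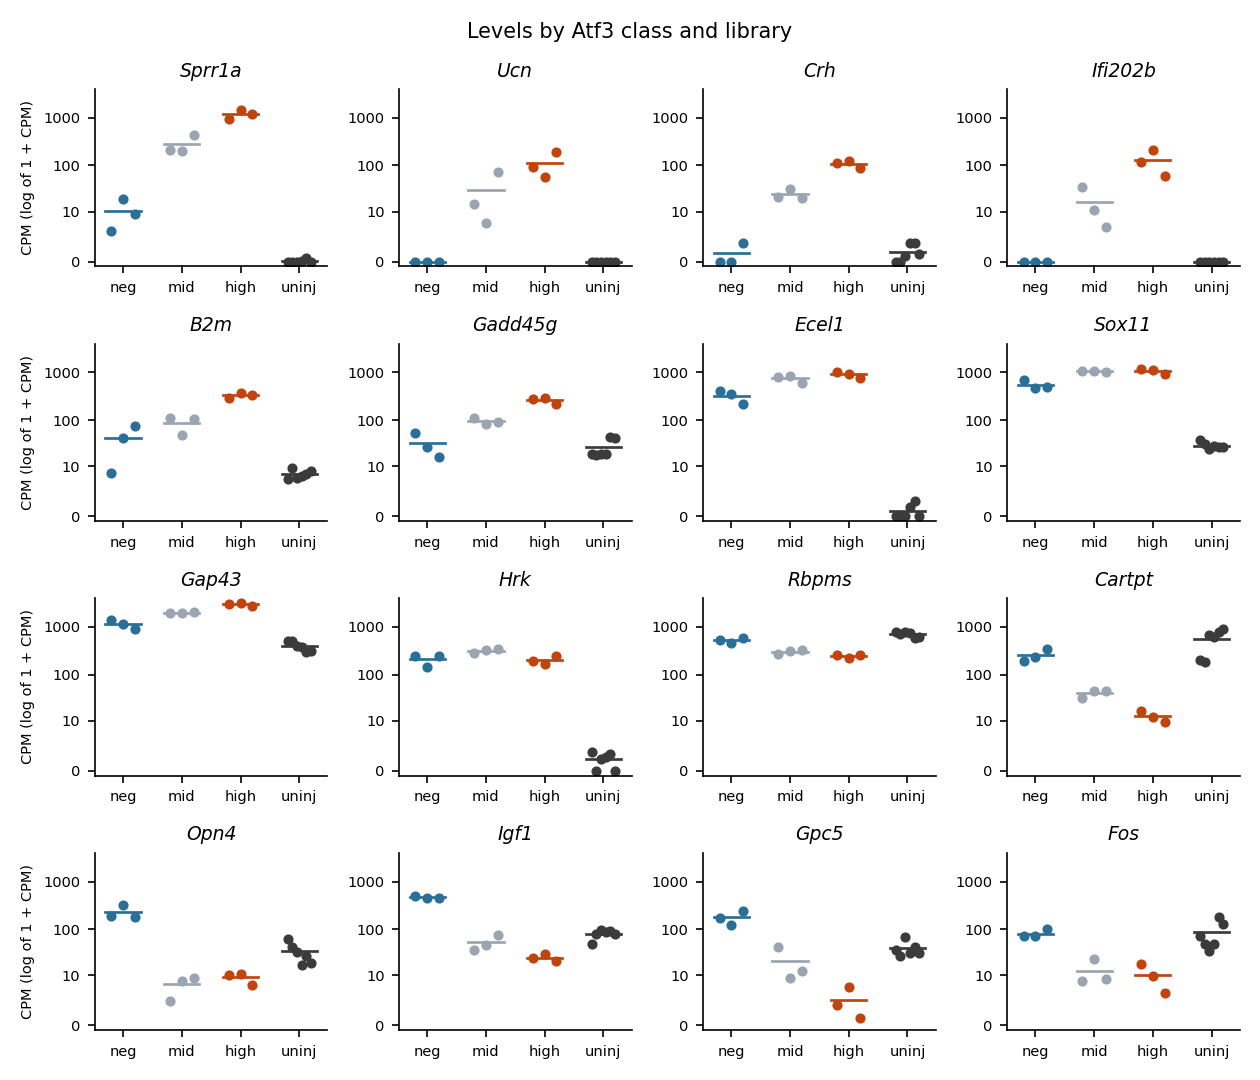
CPM on a log scale of 1 plus the value for 16 genes in the negative, middle and high sums of injured 1 to 3 and in the 6 uninjured libraries, points for libraries and bars for means. Sprr1a, Ucn, Crh and Ifi202b were at or near 0 in negative and uninjured samples, Ecel1, Sox11 and Hrk were high in all injured classes, and Opn4, Igf1 and Gpc5 were highest in negative cells.

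The axon injury genes as a group were lower in negative cells: of 20 tested, 16 were lower and 1 higher, with a median log2 fold change of -1.56. Among the 16, Crh, Npy and Plaur held 1 UMI each in negative cells. These entered the test, which leaves out genes with low counts, only through the high sums. Sprr1a, a small proline-rich protein that promotes axon outgrowth, held 3.41, 19.1 and 8.64 CPM in the negative cells of injured 1, 2 and 3, 936, 1454 and 1215 in the high cells and 0 to 0.178 (median 0) in uninjured libraries. The negative and high sums did not overlap and differed 133-fold (log2 fold change -7.06, SE 0.37, adjusted p 3.33e-16). With every cell thinned to 8000 UMIs, 3.03% of negative and 47.4% of high cells held a Sprr1a UMI, beside 0.0605% of uninjured cells. Ecel1 held 402, 347 and 215 CPM in negative, 1031, 909.7 and 766 in high and 0 to 1.07 (median 0) in uninjured samples. It was thus 3.11-fold lower in negative cells (log2 fold change -1.64, SE 0.23, adjusted p 1.84e-06) and still far above every uninjured library. Gap43 held 1408, 1168 and 894 against 2959.6, 3117 and 2777 CPM, with uninjured libraries at 304 to 513 (median 397), and Tnfrsf12a, the receptor of the cytokine TWEAK, 232, 164 and 107 against 479, 536 and 633, with uninjured libraries at 2.34 to 5.89 (median 2.93). Both genes lay between the uninjured and the high samples without overlap, 2.79-fold and 3.71-fold lower than in high cells (adjusted p 2.74e-05 and 8.99e-07). Sox11 was 2.11-fold lower (682, 462 and 489.5 against 1163, 1100.5 and 917 CPM, adjusted p 0.00063), a call lost without injured 2 (log2 fold change -0.97).

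Among the other members of that list, the neuropeptide galanin (Gal), the tubulins Tubb6 and Tubb2b, the elastase Mmp12, the microtubule regulator Stmn2 and the LIM protein Csrp1 were lower by log2 fold changes of -2.37, -2.39, -1.24, -1.63, -1.06 and -2.15. Without injured 3 the values were -3.17 for Gal, -1.56 for Tubb6 and, no longer past the threshold, -1.53 for Csrp1, and without injured 2 they were -3.35 for Tubb6 and, no longer past the threshold, -1.12 for Stmn2. The calls of Gal and Mmp12 were lost without the cells low in ribosomal UMIs (adjusted p 0.152 and 0.0517). Jun held 385, 355 and 288 CPM in negative and 562, 548 and 486 in high cells, which did not overlap, and lay only 1.68-fold apart (adjusted p 0.0115), a call lost without injured 1 (log2 fold change -0.81), without injured 2 (-0.79), with these 2 libraries summed and with every cell thinned to 8000 UMIs. Klf6, a zinc-finger factor of axon growth, held 139.8, 137 and 164 against 176, 202 and 228 CPM, and its call (adjusted p 0.0489) was lost without any 1 of the libraries (log2 fold changes -0.62, -0.55 and -0.55 without injured 1, 2 and 3). Klf7, Flrt3 and Stmn4 did not pass. Adcyap1, which encodes the neuropeptide PACAP, ran the other way at 208, 405 and 255 against 79.9, 104 and 107 CPM, 2.67-fold higher in negative cells (adjusted p 2.77e-06). Its level was concentrated in the Opn4 cells (506, 908 and 582 CPM), and uninjured Opn4 cells held 341 to 529 CPM.

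Some secreted peptides held by the high cells, and a receptor, were almost missing from negative cells. Ucn, urocortin, a relative of corticotropin-releasing hormone, had no UMI in negative cells and 90.8, 57.7 and 191 CPM in high cells, and none in uninjured libraries. With 3 counts as the floor over the group, the level in high cells was at least 52.5-fold higher, and 16.9% of high cells held a Ucn UMI at 8000 UMIs. Crh, corticotropin-releasing hormone itself, held 0, 0 and 1.44 CPM against 115, 123 and 89.0, a total of 1 UMI in the negative class and a ratio of high to negative of 132-fold (95% counting interval 23.7 to 5219). Npy, neuropeptide Y, also rested on 1 UMI in negative cells, 3.41, 0 and 0 against 40.8, 33.5 and 334 CPM, with a ratio of 207-fold (95% counting interval 37.2 to 8195) and an uninjured level of 2.48 to 32.8 (median 8.36), and Plaur, the urokinase receptor, on 1 UMI, 3.41, 0 and 0 against 16.14, 19.2 and 25.1, with a ratio of 26.0-fold (95% counting interval 4.62 to 1031). All 4 genes passed the test (adjusted p 3.65e-12, 5.12e-12, 6.95e-12 and 3.98e-05), and the high sums lay above the negative sums in each library. With 0 or 1 UMI in the negative class, each entered the test only through the high sums. Without 1 library the fitted log2 fold changes were -10.06 for Ucn and -10.71 for Crh without injured 3, -12.11 and -4.43 for Npy and -8.69 and -3.34 for Plaur without injured 1 and 3, all past the threshold. The calls of Ucn and Npy were lost without the library block.

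Promoters of genes that moved with Atf3 were read because Atf3 binds AP-1 and CRE motifs. The search covered 300 bases, 250 before and 50 after the start, of RefSeq promoters on GRCm38.p6, for the AP-1 letters TGACTCA, which read TGAGTCA on the opposite strand, and for the CRE letters TGACGTCA, on both strands. AP-1 letters occurred in 1709 of 32851 promoters (5.202%) and CRE letters in 588 (1.79%). Of the genes tested, 8590 of 10980 matched a promoter, and 4.31% and 3.84% of them held the motifs. Genes lower in negative cells matched for 912 of 1171, of which 68 (7.46%) held AP-1 and 28 (3.07%) CRE letters, and genes higher in negative cells for 978 of 1288, of which 50 (5.11%) and 35 (3.58%) did. Of the genes named by rule 82 matched, 5 with AP-1 letters (Sprr1a, Plaur, Mmp12, Rsad2 and Creb5) and 6 with CRE letters (Ucn, Maff, Btg2, Cartpt, Mapk10 and Creb5). A match describes these letters in this window and is no evidence of binding. The promoters of Sprr1a (chr3:92485832-92486131, minus strand, 2 AP-1 motifs), Plaur (chr7:24462233-24462532, plus strand), Mmp12 (chr9:7347124-7347423, plus strand) and Ucn (chr5:31138846-31139145, minus strand, CRE) are shown for genes lower in negative cells, and that of Cartpt (chr13:99900634-99900933, minus strand, CRE) for a gene higher in them, each from 5′ to 3′ on the gene's strand with the motif in capitals.
Sprr1a: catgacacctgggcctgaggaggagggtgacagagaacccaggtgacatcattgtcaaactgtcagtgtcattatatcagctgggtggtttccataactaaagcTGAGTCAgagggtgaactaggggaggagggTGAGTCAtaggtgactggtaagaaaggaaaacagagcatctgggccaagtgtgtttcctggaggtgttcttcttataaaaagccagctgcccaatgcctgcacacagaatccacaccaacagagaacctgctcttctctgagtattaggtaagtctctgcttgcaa
Plaur: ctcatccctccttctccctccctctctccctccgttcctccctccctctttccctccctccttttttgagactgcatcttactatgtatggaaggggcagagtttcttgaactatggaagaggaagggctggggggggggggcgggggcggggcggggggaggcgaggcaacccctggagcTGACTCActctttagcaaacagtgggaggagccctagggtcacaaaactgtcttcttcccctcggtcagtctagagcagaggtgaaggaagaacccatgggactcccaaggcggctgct
Mmp12: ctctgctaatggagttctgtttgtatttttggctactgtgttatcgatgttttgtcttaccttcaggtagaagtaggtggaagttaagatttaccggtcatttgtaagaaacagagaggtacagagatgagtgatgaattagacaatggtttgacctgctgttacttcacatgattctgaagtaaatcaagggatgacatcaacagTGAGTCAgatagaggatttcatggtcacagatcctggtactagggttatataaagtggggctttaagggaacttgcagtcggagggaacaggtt
Ucn: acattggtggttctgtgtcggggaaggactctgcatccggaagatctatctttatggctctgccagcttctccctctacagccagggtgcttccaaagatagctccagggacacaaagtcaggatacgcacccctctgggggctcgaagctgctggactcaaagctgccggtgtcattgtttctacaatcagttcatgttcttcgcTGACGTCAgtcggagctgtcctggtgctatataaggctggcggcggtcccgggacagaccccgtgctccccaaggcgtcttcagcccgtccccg
Cartpt: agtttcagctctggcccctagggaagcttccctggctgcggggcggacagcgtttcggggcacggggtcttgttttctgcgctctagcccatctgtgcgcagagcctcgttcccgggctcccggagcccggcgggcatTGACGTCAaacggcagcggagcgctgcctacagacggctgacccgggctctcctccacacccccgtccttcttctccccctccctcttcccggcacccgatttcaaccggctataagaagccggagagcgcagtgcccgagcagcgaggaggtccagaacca

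The partners of Atf3 did not move together. Of 14 AP-1 and ATF genes tested, 4 were higher (Fos, Maff, Junb and Atf2), 3 lower (Mafk, Crem and Jun) and 7 not called, with a median log2 fold change of 0.24, and 1 was lower without injured 1 or without injured 2. Fos, the immediate early partner of Jun, held 71.6, 72.5 and 101 CPM in negative, 18.1, 9.61 and 3.65 in high and 34.1 to 184 (median 60.3) in uninjured samples. Negative sums lay above all high sums and within the uninjured range, and Fos was 8.70-fold higher than in high cells (log2 fold change 3.12, SE 0.43, adjusted p 0.0002), with log2 fold changes of 3.82 without injured 1 and 2.27 without injured 3. Within the negative class Fos held 217, 148 and 200.1 CPM in the Opn4 cells, 0, 0 and 10.1 in the Ecel1 cells and 0, 49.7 and 132 in the cells with neither, where 24 of the 70 Fos UMIs of injured 3 lay, and without Opn4 cells Fos lost its call at a log2 fold change of 1.71. Junb held 81.8, 141 and 199 against 32.3, 39.5 and 50.7 CPM (log2 fold change 1.65, adjusted p 7.04e-07) and Atf2 208, 209.9 and 166 against 88.6, 80.1 and 87.8 (1.06, 0.000162), neither with overlap. The call of Junb was also lost without Opn4 cells. Crem, a CREB family modulator, was lower at 58.0, 91.6 and 99.3 against 129.6, 129.6 and 137 CPM (log2 fold change -0.77, adjusted p 0.0115), a call lost without injured 1 (-0.59), with DESeq2 and with cells thinned to 8000 UMIs (-0.68). The small Maf proteins were sparse: Maff held 10.2, 15.3 and 7.199 against 2.19, 2.14 and 2.64 CPM, a call lost without injured 1 (1.86) or 2 (1.58), and Mafk 3 UMIs in the class, a ratio of high to negative of 4.50-fold (95% counting interval 1.503 to 22.1), lost without injured 2 (log2 fold change -1.94) or 3 (-1.77) and at -3.25 without injured 1.

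Immediate early genes, which also mark stress during dissociation, were split. Of 13 tested, 5 were higher in negative cells (Nr4a1, Fos, Junb, Btg2 and Dusp1) and 3 lower (Hsph1, Hsp90aa1 and Ier2), with a median of 0.26. Without injured 1 none was lower, and without injured 3 1 was and the median was -0.02. Nr4a1, an activity-induced nuclear receptor, held 23.9, 22.9 and 36.0 CPM in negative, 1.09, 0.712 and 0.608 in high and 12.0 to 21.6 (median 15.1) in uninjured samples. Negative cells exceeded every high and every uninjured sample, and the difference from high cells was 31.6-fold (adjusted p 1.3e-08). Btg2, an antiproliferative factor, held 27.3, 34.3 and 180.0 against 17.0, 19.9 and 35.3 CPM and rested on injured 3, without which the call was lost (log2 fold change 0.63).

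Genes of the integrated stress and unfolded protein responses, Atf4 among them, were mostly lower in negative cells, with 19 of 25 lower, none higher and a median of -1.12. Without injured 3 the count was 11 of 25, and DESeq2 gave 12. Phgdh, the serine synthesis enzyme that Atf4 induces, held 113, 95.4 and 24.5 CPM in negative, 235, 243 and 248 in high and 0.691 to 1.66 (median 0.796) in uninjured samples. The negative sums lay apart from both and were 3.94-fold below the high sums (adjusted p 0.000747), with a log2 fold change of -1.30 without injured 3. Shmt2, a mitochondrial serine enzyme, held 13.6, 7.63 and 15.8 against 50.3, 38.1 and 56.2 CPM (4.08-fold lower, adjusted p 2.71e-05). Sdf2l1, a chaperone cofactor of the endoplasmic reticulum, had 1 UMI in the negative class, a ratio of high to negative of 48.6-fold (95% counting interval 8.67 to 1923), and passed the test (adjusted p 5.92e-08, fitted log2 fold change -8.29 without injured 3). It entered the test only through the high sums. Nupr1, a stress-induced chromatin protein, held 10.2, 3.82 and 5.76 against 15.9, 26.0 and 23.1 CPM, a call lost without injured 3 (log2 fold change -1.60). Within the negative class the Ecel1 cells held 129.8 CPM of Phgdh, the Opn4 cells 2.38 and the high class 243 when cells were pooled over libraries. The transcripts of Atf4 itself followed the same order at 174, 73.9 and 368 CPM.

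Genes of apoptosis and of the p53 response were lower or not called, 8 of 20 lower, none higher, median -0.64, with 5 of 20 lower without injured 1, 3 of 20 without injured 3 and 4 of 20 by DESeq2. Gadd45g, a DNA damage and stress protein, held 54.6, 26.7 and 15.8 CPM in negative, 282, 294 and 214 in high and 17.9 to 43.2 (median 18.9) in uninjured samples. Negative cells overlapped the uninjured range and were 9.56-fold below the high cells (log2 fold change -3.26, SE 0.28, adjusted p 5.27e-11). Gadd45a behaved alike at 88.7, 64.9 and 31.7 against 251, 257 and 424 CPM (5.95-fold lower, adjusted p 3.59e-05, log2 fold change -1.82 without injured 3), above the uninjured 8.90 to 16.9 (median 11.2). Aen, a p53-induced nuclease, and Apaf1, the core of the apoptosome, were lower by log2 fold changes of -1.76 and -1.03, calls that were lost without injured 3 (-1.33 and -1.02) and, for Apaf1, without injured 1 (-0.90) and with cells thinned to 8000 UMIs (-0.68), 12 of its 21 alternatives in all. Hrk, by contrast, did not differ detectably between the sums of the classes. It held 242, 149 and 243 CPM in negative and 191, 168 and 246 in high cells, overlapping sums with an adjusted p of 0.899 (log2 fold change -0.05, SE 0.21), and both classes lay far above the uninjured 0 to 1.42 (median 0.849). The negative sums mix kinds of cell. By the values given above, negative Ecel1 cells lay above the high sum in each library and negative Opn4 cells below it.

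Antigen presentation and interferon genes were lower in negative cells as well. Of 18 tested, 14 were lower in negative cells and none higher, median -1.70, unchanged with Isg15, which had no UMI in negative cells, at its bound. The count was 9 of 18 without injured 2 and 8 of 18 with DESeq2. Several members, Isg15, Bst2 and Ifit1 among them, passed the filter on low counts mainly through the high sums, and with no filter 14 of 19 were lower and none higher. B2m, the light chain of MHC class I, held 6.82, 42.0 and 73.4 CPM in negative, 290.5, 371 and 335 in high and 4.96 to 9.07 (median 6.30) in uninjured samples. Negative sums varied widely, overlapped the uninjured range in injured 1 alone, and lay 8.30-fold below the high sums (log2 fold change -3.05, SE 0.32, adjusted p 5.48e-07), with a log2 fold change of -3.92 without injured 3. Ifi202b, an interferon-induced DNA-binding protein, had 0 UMIs in negative and uninjured cells and 117, 210.1 and 60.4 CPM in high cells. That made it at least 48.1-fold higher in high cells, and Isg15, the ubiquitin-like interferon product, at 0 against 31.7, 87.6 and 14.2 CPM, at least 15.8-fold. Rsad2, the antiviral viperin, had 1 UMI in the negative class, a ratio of 69.5-fold (95% counting interval 12.4 to 2750.4), with fitted log2 fold changes of -5.11 and -10.18 without injured 2 and 3. Ifit1, an RNA-binding interferon product, varied between libraries in both classes, 0, 45.8 and 1.44 against 164, 338 and 41.2 CPM (log2 fold change -3.86), and the negative sum of injured 2 lay above the high sum of injured 3 although negative cells were lower in each library. Bst2, tetherin, held 0, 3.82 and 7.199 against 32.8, 81.9 and 26.0 CPM. Log2 fold changes without 1 library were -6.31 for Ifit1 without injured 2, -5.01 for Bst2 without injured 3 and -8.55 for Isg15 without injured 2. Without the library block the calls of Ifi202b, Isg15, Rsad2, Ifit1 and Bst2 were lost.

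**Figure D4:**
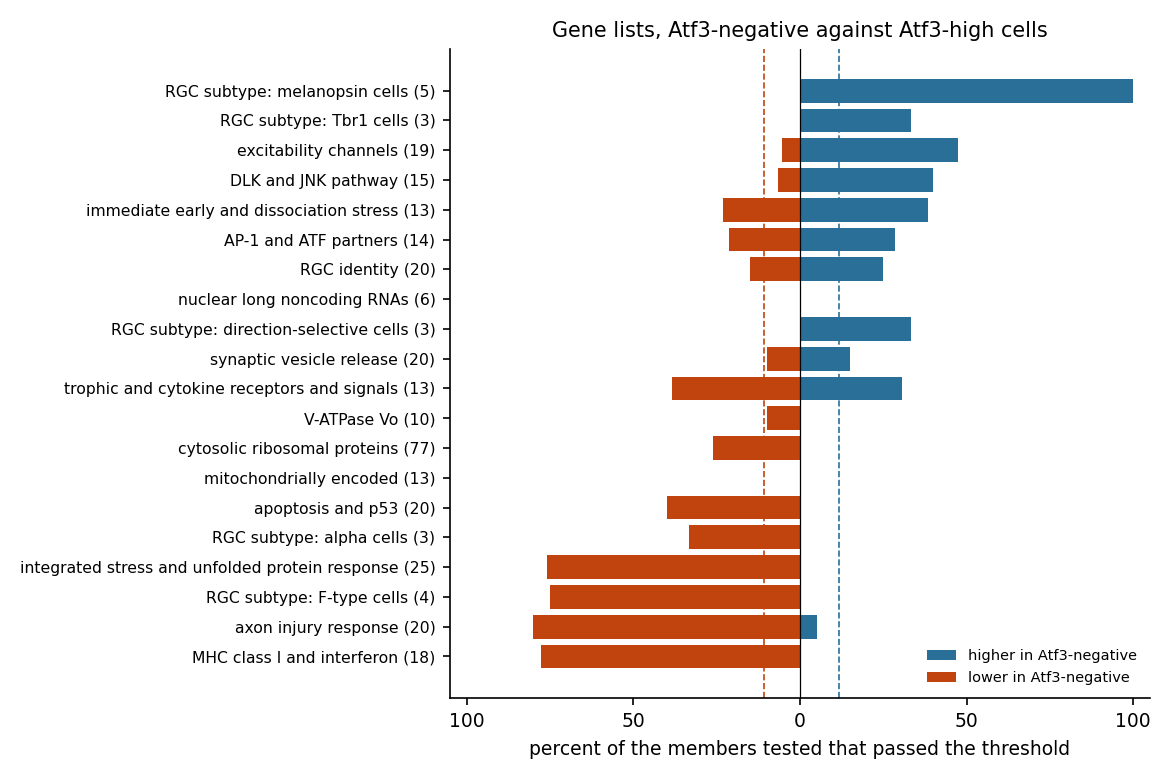
Percent of the members tested (horizontal axis) of each gene list that were higher (right) or lower (left) in Atf3-negative than in Atf3-high cells at an adjusted p of 0.05, with the number tested in brackets and dashed lines at the share over all genes, 11.7% higher and 10.7% lower. Members without enough UMIs in either class are not in the shares, and some were tested through the UMIs of 1 class alone. Interferon, axon injury and stress lists lay to the left, and melanopsin and channel lists to the right.

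Transcripts of the kinases upstream of Atf3 were higher or not called in negative cells, and kinase activity was not measured. Of 15 DLK and JNK pathway genes tested, 6 were higher in negative cells and 1 (Mapk8ip3) lower, median 0.34, and 4 of 15 were higher without injured 1. Mapk10, which encodes the neuronal kinase JNK3, held 439.9, 336 and 390.2 CPM in negative, 169.8, 161 and 106 in high and 287 to 424 (median 353) in uninjured samples. The negative sums lay above the high sums and within or near the uninjured range (2.55-fold higher, adjusted p 1.01e-05). Map3k12 (DLK) and Map3k13 (LZK), the kinases that sense axon damage, were higher by log2 fold changes of 0.98 (adjusted p 0.0051) and 1.27 (adjusted p 0.000369), the former not called without injured 1 (0.83), with DESeq2, with a higher minimum depth, with classes set on thinned counts or with injured 4 in place of injured 3. Nmnat2, the axon-protective NAD enzyme, held 126, 122 and 171 against 70.8, 74.4 and 60.6 CPM (log2 fold change 0.96, adjusted p 0.00119). Its call was lost without the Opn4 cells and among Ecel1 cells alone.

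Trophic signals split by gene, with 4 of 13 higher (Igf1, Ntrk3, Igf1r and Ntrk2), 5 lower (Gfra1, Gdf15, Lifr, Il6st and Ret) and a median of -0.19 that became 0.06 when cells were thinned to 8000 UMIs. Igf1, insulin-like growth factor 1, held 505, 447 and 461 CPM in negative, 24.6, 29.6 and 20.7 in high and 49.6 to 95.2 (median 82.8) in uninjured samples. Negative cells exceeded all other samples, 17.8-fold above the high cells (log2 fold change 4.15, SE 0.23, adjusted p 5.43e-16). It was strongest in the Opn4 cells (1199, 621 and 959 CPM, beside 412 to 707 in uninjured Opn4 cells). Lifr, the receptor of leukaemia inhibitory factor, was lower at 40.9, 15.3 and 56.1 against 149, 120.3 and 117 CPM (3.39-fold, adjusted p 5.92e-06, log2 fold change -2.35 without injured 3). Gdf15, a stress cytokine, held 3.41, 0 and 7.199 against 15.3, 8.54 and 19.5 CPM, a call lost without injured 3 (log2 fold change -2.82), and Gfra1, a GDNF receptor, 3.41, 19.1 and 1.44 against 17.2, 57.0 and 11.8, which overlapped, with a log2 fold change of -2.12 that became -2.82 without injured 2.

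RGC identity genes went both ways, 5 higher and 3 lower of 20 tested, with a median of 0.15, which was -0.14 without injured 1, and 5 higher and 5 lower of 22 without a filter on low counts. Rbpms, at the levels given above, compared with 259.6, 221 and 262 CPM in high cells and 589 to 804 (median 739.6) in uninjured libraries. The negative sums lay between, 1.99-fold above the high sums (log2 fold change 0.99, SE 0.21, adjusted p 0.000645), a call just lost without injured 2 (log2 fold change 0.96). Pou4f2 (Brn3b), the factor that specifies RGCs, held 27.3, 45.8 and 24.5 against 9.30, 6.41 and 5.47 CPM, and uninjured libraries 38.98 to 73.5 (median 68.9). It was 4.18-fold higher than in high cells (adjusted p 0.000188) and overlapped the lowest uninjured library. The transcription factors Ebf3 and Irx6 were higher by log2 fold changes of 1.55 and 2.92 (adjusted p 3.26e-06 and 0.000145). The members called lower were Tubb3, Nefh and Thy1. Tubb3, neuronal tubulin, held 429.7, 740.4 and 934 against 1130.1, 1403 and 2120.4 CPM, Nefh, heavy neurofilament, 30.7, 57.2 and 41.8 against 90.5, 118 and 95.9, and Thy1, the antigen used for capture, 263, 237 and 225 against 553, 524 and 471. The lighter neurofilament genes Nefl and Nefm were not called (adjusted p 0.0552 and 0.101). None of the 3 called lower overlapped, and the falls were 2.41-fold, 2.54-fold and 2.30-fold (adjusted p 0.000126, 0.000111 and 0.000102). Slc17a6 and Sncg did not pass, at log2 fold changes of -0.40 and -0.16 (adjusted p 0.2 and 0.669), although Slc17a6 did without injured 3 (-0.52).

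Of the 6 genes of the melanopsin list, 5 were tested and higher in negative cells, and Nmb had too few UMIs. At their levels in high cells most of the 5 could pass the filter on low counts only through the negative sums. Without that filter, where every member was tested whatever its level, 6 of 6 were higher. Opn4 held 188, 332 and 181 CPM in negative, 10.4, 11.04 and 6.08 in high and 17.1 to 63.8 (median 30.0) in uninjured samples. Negative sums exceeded every other sample, 23.5-fold above the high cells (log2 fold change 4.55, SE 0.24, adjusted p 3.72e-16). Eomes at 109, 118 and 92.1 against 1.09, 6.05 and 4.87 CPM, the heart and RGC factor Tbx20 at 119, 57.2 and 131 against 1.64, 1.78 and 3.24, the channel Trpc7 at 37.5, 72.5 and 72.0 against 0.274, 2.49 and 0.406 and the exchange factor Rasgrp1 at 20.5, 103 and 49.0 against 1.09, 0.356 and 0.203 followed. None of these overlapped, with log2 fold changes of 4.63, 5.37, 5.93 and 6.36 and adjusted p at most 5.83e-11, and without 1 library Trpc7 ranged from 5.26 to 7.01 (without injured 3 and 2) and Rasgrp1 from 5.69 to 7.65 (without injured 2 and 1). With the Opn4 cells left out of both classes, an alternative added after the data had been seen, no melanopsin gene other than Opn4, by which those cells were chosen, had enough UMIs to test.

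The lists of other subtypes held few genes that were tested between the classes, and the shares of these subtypes were not measured. F-type genes were lower for 3 of 4 tested (median -1.40), with 2 of 4 lower without injured 1 and 2 of 3 without injured 3, led by Anxa3, an annexin, at 75.0, 22.9 and 23.04 against 131, 117 and 178 CPM (log2 fold change -2.10, adjusted p 5.84e-05, and -2.87 and -1.43 without injured 1 and 3). The cochlin gene Coch (log2 fold change -1.77) and Pou3f1, a POU factor (-1.03), lost their calls without injured 1 for Coch (-1.65, and -1.72 without the cells low in ribosomal UMIs) and without injured 3 for Pou3f1 (-0.43). Foxp2 was not called between the classes. Anxa3 and Pou3f1 were also called higher than uninjured in both injured classes. In negative cells Anxa3 lost that call without injured 1 (log2 fold change 1.01). Alpha cell genes were lower for 1 of 3 (Spp1, osteopontin, median -0.87), where the sums overlapped (61.4, 0 and 82.1 against 87.5, 50.2 and 241 CPM) and the call was lost without injured 3 (log2 fold change -1.27), with DESeq2, without the library block, with injured 4 in place of injured 3 and with cells thinned to 8000 UMIs. Without the cells holding 3 markers of another class Spp1 turned to 0.22. The direction-selective list had 1 of 3 higher and a median of 0.10, which was -0.36 with DESeq2. Its member Cartpt held 198, 233 and 351 CPM in negative, 17.0, 12.5 and 9.53 in high and 184 to 894 (median 651) in uninjured samples. Negative cells kept levels of the lower uninjured libraries and lay 19.1-fold above the high cells (log2 fold change 4.25, SE 0.26, adjusted p 4.05e-13). The Tbr1 list had 1 of 3 higher (Jam2, an adhesion molecule, 27.3, 34.3 and 25.9 against 4.65, 10.7 and 1.82 CPM, median of the list 1.19). Penk, proenkephalin, was lower at 27.3, 11.4 and 11.5 against 75.8, 117 and 77.9 CPM (log2 fold change -2.56, adjusted p 2.39e-07). The Tfap2d and W3-type list had 1 of 2 higher (Serpine2, a protease inhibitor, median 0.83), with overlapping sums (13.6, 68.7 and 43.2 against 12.9, 12.5 and 17.4) and no call without injured 2 (log2 fold change 0.82) or 3 (1.48).

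Ion channel genes were more often higher in negative cells, 9 of 19 against 1 lower, median 0.53, with 5 of 19 higher without injured 2. Cacna1e, an R-type calcium channel, held 34.1, 19.1 and 27.4 CPM in negative, 3.83, 7.12 and 3.45 in high and 8.15 to 35.5 (median 23.8) in uninjured samples. Negative cells lay within the uninjured range and 5.62-fold above the high cells (adjusted p 7.42e-05). The potassium channel Kcna2 was higher by a log2 fold change of 1.45 (adjusted p 0.000197), and the sodium channel subunit Scn2b by 1.41, a call lost without injured 3 (1.02). Genes of synaptic vesicle release were near the background, 3 of 20 higher (Rims1, Sv2a and Syn2) and 2 lower, Cplx1 among them, with a median of 0.10 that was -0.004 with DESeq2, and 1 was lower without injured 2. Rims1, an active zone scaffold, held 795, 645 and 689.6 against 370.3, 371 and 231 CPM (2.09-fold higher, adjusted p 0.000517), and Sv2a, a vesicle glycoprotein, 171, 153 and 167 against 103, 85.8 and 75.8 (1.75-fold, adjusted p 0.0034). The call of Cplx1, a regulator of vesicle fusion (log2 fold change -0.85), was lost without injured 3 (-0.48).

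Among abundant genes outside the lists, the largest rise in negative cells was that of Gpc5, a glypican that carries heparan sulphate, at 171, 126 and 238 CPM against 1.64, 5.34 and 0.406 and 27.5 to 69.5 (median 34.5) in uninjured libraries. Negative sums exceeded all other samples (log2 fold change 6.31, SE 0.64, adjusted p 0.000667), with 7.56 without injured 2, 5.37 without injured 3 and no call under a higher minimum depth. Trhde, the enzyme that degrades thyrotropin-releasing hormone, at 263, 305 and 204 against 6.29, 10.3 and 8.92 CPM, and Pde7b, a cAMP phosphodiesterase, at 225, 87.8 and 63.3 against 7.66, 2.49 and 2.23, followed with log2 fold changes of 4.78 and 4.79. Ly6h, a modulator of nicotinic receptors, the secreted protein Ndnf, the secreted ligand Nell1 and Caly, a dopamine receptor partner, had values of 4.43, 3.599, 3.47 and 3.36, and the highest adjusted p of these 6 was 5.04e-12. On the other side Neto1, an auxiliary subunit of glutamate receptors, held 0, 3.82 and 18.7 CPM in negative, 393, 383 and 249.8 in high and 1.42 to 5.93 (median 2.50) in uninjured samples, Mcub, a subunit of the mitochondrial calcium channel, 10.2, 0 and 1.44 against 48.4, 56.6 and 63.1, and Glis3, a zinc-finger factor, 3 UMIs in the class against 109, 90.8 and 21.5 CPM. High sums lay above negative sums in each library for all 3, 32.0-fold for Neto1, 18.8-fold for Mcub and 27.8-fold (95% counting interval 9.47 to 135) for Glis3. Without injured 3 the log2 fold changes were -7.80, -3.36 and -10.47, Mcub gave -5.92 and Glis3 -3.76 without injured 1, and the call of Neto1 was lost with injured 4 in place of injured 3. At 8000 UMIs, 28.3% of high and 3.03% of negative cells held a Neto1 UMI, beside 1.63% of uninjured cells.

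How far these differences belong to the Opn4 cells was read from the fits added after the data had been seen. Without the Opn4 cells 1102 genes passed, 5.15% higher and 5.10% lower, with 11 of 20 axon injury, 10 of 25 stress and 12 of 18 interferon genes lower, and with 5 of 19 identity and 6 of 19 channel genes higher. Among Ecel1 cells alone, 44 negative against 539 high, 215 genes passed, 0.932% higher and 1.11% lower, and 5 of 20 axon injury, 1 of 25 stress and 9 of 16 interferon genes were lower. Of the 92 named genes called in the full comparison, 80 could be tested among Ecel1 cells alone and 25 kept their direction and call there, Sprr1a, Crh, Gadd45g, B2m, Igf1, Cartpt and Ebf3 among them. The calls of Gap43, Sox11, Jun, Tnfrsf12a, Phgdh, Rbpms and Pou4f2 were lost there, at log2 fold changes from -0.99 (Tnfrsf12a) to 1.45 (Pou4f2). All were smaller than in the full comparison, with Sox11 at -0.03 and Jun at -0.38 there against -1.08 and -0.75, and Fos (-0.60), Junb (-0.56) and Adcyap1 (-1.34) turned negative. A difference between the fits was not tested.

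Other settings cost some of the named genes their calls. Of the 92, 76 kept theirs with DESeq2, where Klf6, Csrp1, Maff, Mafk, Crem, Nupr1, Aen, Apaf1, Map3k12, Spp1, Coch, Pou3f1, Serpine2, Cplx1, Gdf15 and Atp6ap1 did not. With cells thinned to 8000 UMIs 74 of 83 tested kept their calls, those of Jun, Csrp1, Crem, Apaf1, Spp1, Pou3f1, Cplx1 and Atp6ap1 among the calls lost. With injured 4 in place of injured 3, 80 of 90 kept theirs, and without the library block 78 of 92.

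**Figure D5:**
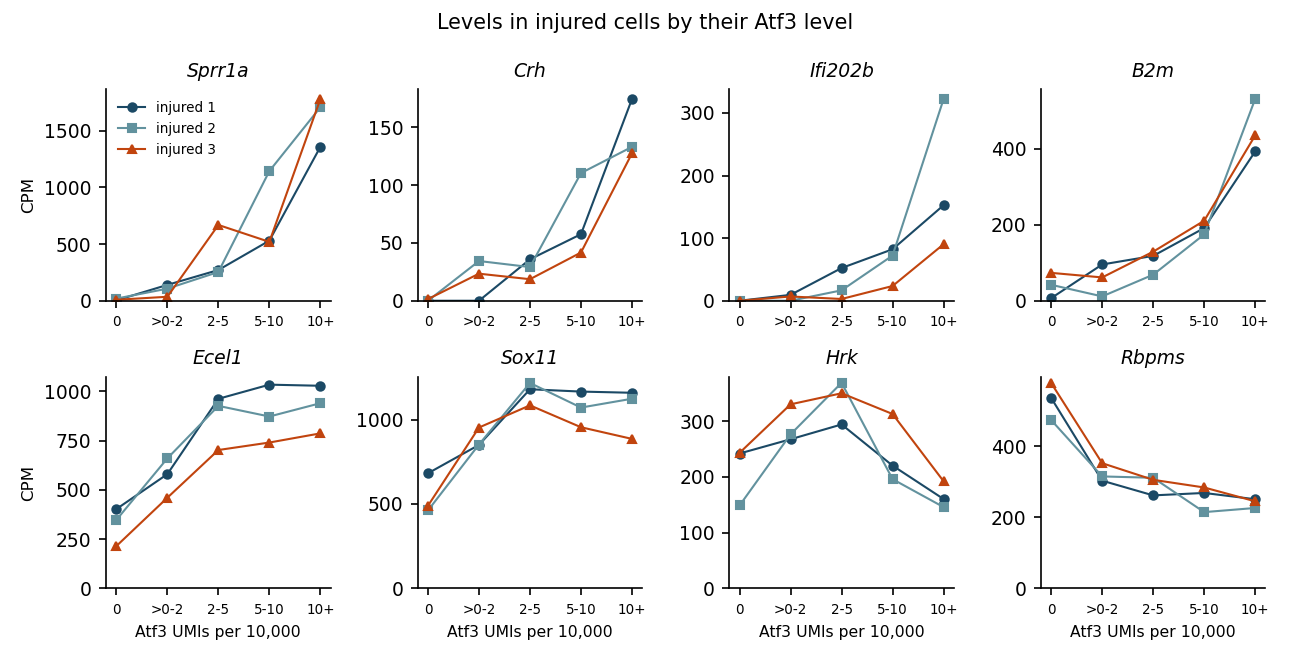
CPM (vertical axes) of 8 genes in injured cells grouped by their Atf3 UMIs per 10000 (horizontal axes: 0, above 0 to 2, 2 to 5, 5 to 10, 10 and more), a line per library. Sprr1a, Crh, Ifi202b and B2m were highest in the last group, Ecel1 was close to its plateau and Sox11 at its highest from 2 to 5, Hrk was highest at 2 to 5 in each library, and Rbpms was highest at 0.

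Across the whole range of Atf3, genes followed different courses, given as a description because Atf3 orders the cells. From cells at 0 to cells at 10 or more Atf3 UMIs per 10000, Sprr1a held 3.41, 139.9, 271, 530.0 and 1358 CPM in injured 1, 19.1, 107, 254, 1144 and 1707 in injured 2 and 8.64, 35.1, 668, 519 and 1779 in injured 3. It climbed in injured 1 and 2 and dipped once, between 5 and 10, in injured 3. Ecel1 held 402, 579.8, 962, 1034 and 1028 CPM in injured 1 and Hrk 242, 268, 294, 220.4 and 160.4, 149, 277, 369, 196 and 146 and 243, 330.4, 350.3, 313 and 192 in injured 1, 2 and 3. Ecel1 was thus near its full level once cells held 2 Atf3 UMIs per 10000, whereas Hrk was lowest at 10 or more in each library. Rbpms held 535, 303, 261, 268 and 251 CPM in injured 1, with its drop at the step from 0 to the next group, and Gadd45g 54.6, 67.3, 142, 206 and 361, with its highest level in the last group.

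Beside the uninjured cells, the sums of Atf3-negative injured cells held more of some injury genes. Ecel1, Hrk, Creb5, Sox11 and Jun stood higher than in every uninjured library. These sums mix the kinds described above, among which Sox11 and Hrk were lowest in the Opn4 cells. Of 13087 genes tested, 2417 passed (18.5%), 1215 higher (9.28%) and 1202 lower (9.18%), with a median log2 fold change of -0.07. The count fell to 1585 without injured 1 and 993 without injured 3, and to 971 when libraries were summed to 3 uninjured and 2 injured samples. Injury cannot be told apart from batch here, since each library is 1 capture of injured or of uninjured cells. The injured cells are also those that survived 2 weeks. In injured 1 and 2 injury cannot be told apart either from the sex difference that Xist shows from the uninjured libraries. Negative cells of injured 3 held 0 CPM of Xist, with 215 of Ecel1, 243 of Hrk and 489.5 of Sox11. The part of sex was not tested.

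Among called genes averaging 5 or more in log2 CPM and without overlap between samples, the 5 largest rises were those of Ecel1, Hrk, Creb5, Sox11 and Atf5. Ecel1 was 866-fold higher than in uninjured cells (log2 fold change 9.76, SE 0.50, adjusted p 7.14e-08), Hrk 257-fold (log2 fold change 8.003, SE 0.38, adjusted p 3.99e-08) and Sox11 18.3-fold (log2 fold change 4.19, SE 0.18, adjusted p 2.18e-08). Creb5 held 317, 290.0 and 262 CPM in negative, 163, 129.6 and 142 in high and 2.13 to 4.74 (median 3.05) in uninjured samples. Here the negative cells stood highest of all, 82.7-fold above uninjured (log2 fold change 6.37, SE 0.22, adjusted p 2.86e-09) and 1.85-fold above high cells (adjusted p 0.00114). Atf5, a stress factor of the ATF family, held 164, 145 and 111 against 11.5 to 17.4 (median 14.3) CPM in uninjured libraries (log2 fold change 3.21, SE 0.20, adjusted p 5.02e-07), without overlap. Among the largest falls under the same limits, Pttg1, securin, had no UMI in negative cells against 40.6 to 91.2 (median 58.4) CPM in uninjured libraries, at least 21.8-fold lower (adjusted p 0.00047). It entered the test only through the uninjured sums. Sptssb, a subunit of the sphingolipid enzyme, Irx4, a homeobox factor, and Ppp1r17, a phosphatase inhibitor, rested on 2, 2 and 3 UMIs in the negative class, and uninjured levels exceeded them by 33.8-fold (95% counting interval 9.35 to 279), 33.2-fold (95% counting interval 9.17 to 274) and 25.6-fold (95% counting interval 8.74 to 124). Irx4 and Sptssb stayed past the threshold without any 1 injured library, at -11.55 for Irx4 without injured 3 and -6.24 for Sptssb without injured 2. Calb1, the calcium buffer calbindin, was 28.3-fold lower (3.41, 3.82 and 2.88 against 7.44 to 137 (median 94.8) CPM, adjusted p 0.0164), and lost its call without any 1 of the injured libraries (log2 fold changes -4.86, -4.95 and -4.67).

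The high cells were compared with the same uninjured libraries, so the values that follow share their controls and are set side by side without a test between them. High cells differed in 6203 of 13777 genes (45%), 2985 higher (21.7%) and 3218 lower (23.4%). For the axon injury list, negative cells had 12 of 16 genes higher and none lower (median 1.58) and high cells 20 of 20 higher (median 3.38). Stress genes were higher for 13 of 25 in negative cells, with Sdf2l1 lower, a call lost without any 1 injured library (log2 fold changes -2.94, -3.03 and -8.67 without injured 1, 2 and 3, median of the list 0.88), and for 22 of 25 in high cells (2.39). Interferon genes were higher for 4 of 13 (median 0.89) and 19 of 19 (3.89), and without injured 3 for 1 of 14 in negative cells. Apoptosis genes were higher for 7 of 21 with Aen lower, also lost without any 1 of them (log2 fold changes -1.64, -2.02 and -1.16, and the fit without uninjured 6 at -1.54; median of the list 0.56) and for 14 of 21 with 1 lower (1.35). The medians rest on different members where the numbers tested differ, since some genes passed the filter on low counts through the high cells alone. For single genes the log2 fold changes from uninjured were 9.76 in negative and 11.48 in high cells for Ecel1, 4.19 and 5.36 for Sox11, 2.32 and 3.16 for Jun, 1.46 and 3.01 for Gap43, 6.08 and 8.02 for Phgdh, and 8.003 and 8.12 for Hrk.

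Of the other lists the melanopsin genes differed in direction between the classes, while identity, synaptic and channel genes were more often lower than higher in both. Melanopsin genes were higher for 5 of 6 in negative cells (median 2.15) and lower for 6 of 6 in high cells (-2.97), as were, gene by gene, Opn4 (2.74 and -1.74), Igf1 (2.48 and -1.57), Ndnf (2.48 and -1.04) and Nell1 (1.04 and -2.27). The melanopsin count was 3 of 6 without injured 2 and 2 of 6 without injured 3. Identity genes were lower for 11 of 22 in negative cells with Ebf3 higher (median -0.998, 7 of 22 without injured 1 and 4 of 22 without injured 3) and for 13 of 22 in high cells with Tubb3 higher (-0.74). Rbpms, not called in negative cells (log2 fold change -0.49, adjusted p 0.0611), but called without the cells low in ribosomal UMIs (-0.52), stood at -1.39 in high cells, and Ebf3 at 1.64 in negative and 0.19 in high cells. Synaptic genes were lower for 10 of 20 in negative and 11 of 20 in high cells (medians -0.999 and -0.80), and channel genes for 7 of 19 and 11 of 19 (-0.23 and -0.85), with 1 channel, Cacna2d1, higher in negative cells and none higher without any 1 injured library.

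AP-1 and ATF genes were higher for 7 of 14 in negative cells against uninjured (median 0.73), 2 of 14 without injured 2, and for 7 of 16 with 3 lower in high cells (0.47). Trophic genes were higher for 6 of 13, 3 of 13 without injured 3, and for 9 of 15 with 4 lower (medians 0.52 and 1.27), DLK and JNK genes for 3 of 17, 1 of 17 without injured 3, and for 7 of 17 with 5 lower (0.13 and -0.05), and immediate early genes for 3 of 15 with 1 lower (median of all 18 without a filter -0.46), 1 of 16 with 0 lower without injured 3, and for 5 of 16 with 5 lower (0.54 and -0.23). In negative cells the F-type list had 2 of 4 higher and 1 lower (1 higher without injured 1), the alpha list 0 of 2 called and the direction-selective list 0 of 5 (0 and 2 at an unadjusted p under 0.05 in edgeR, and 0 by DESeq2), and the Tbr1 and the Tfap2d and W3-type lists 2 and 2 of 4 lower, with 1 of 4 for the W3-type list without injured 3 (medians -0.18, 0.96, -1.19, -1.09 and -1.63).

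The remaining lists describe the state of the RNA and the gene family of the study. Ribosomal protein genes were lower in negative than in high cells for 20 of 77 tested and higher for none (median -0.44), with 11 of 78 lower without injured 1, 4 of 78 without injured 2 and 1 of 77 without the Opn4 cells. Rpl5, a large subunit protein, held 447, 419.8 and 407 against 645, 643 and 1162 CPM (log2 fold change -1.01, adjusted p 0.002), and Rpl35, Rps20 and Rps27l had values of -0.88, -0.88 and -1.0002, with the call of Rps20 lost without injured 2 (-0.89) and that of Rps27l without injured 3 (-0.59). In edgeR, 0 of 13 mitochondrial genes passed (9 at an unadjusted p under 0.05, median -0.56), while DESeq2 called 5 lower, the fit without a filter on low counts 4 and the fit without injured 3 called 11 lower. None of 6 nuclear noncoding RNAs passed in edgeR (0 at an unadjusted p under 0.05) or in DESeq2 (median 0.14), and without injured 3 1 was higher and 1 lower. Of 10 V-ATPase Vo genes 1 was lower in negative cells (Atp6ap1, an accessory subunit, 81.8, 122 and 119 against 158, 159 and 158 CPM, median of the list -0.34), a call lost without injured 1 (log2 fold change -0.51) or 2 (-0.77), and Atp6v0c itself did not pass at 1235, 1481 and 1135 against 1289, 1557 and 1548 CPM (log2 fold change -0.30, adjusted p 0.388). Against uninjured cells, negative cells had 10 of 78 ribosomal genes higher and 2 lower (4 higher without injured 1 and 2 without injured 2), 9 of 13 mitochondrial genes lower (4 of 13 without injured 1 or without injured 3), 0 of 6 noncoding RNAs called (1 at an unadjusted p under 0.05, 1 by DESeq2) and 1 of 10 Vo genes higher with 2 lower, none of them lower without any 1 injured library and none higher without injured 1 or 3 (medians 0.32, -1.17, 0.29 and -0.51).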

How the data were processed

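The values are whole UMI counts for each cell and gene as deposited by the authors, with reads aligned to mm39 by Cell Ranger (7.0.1 per the labels). Counted with the repeat capture, the deposited injured cells outnumber the injured RGCs given in the study's methods. Not all of them need therefore be cells that the study kept. Cells were classed by Atf3 and depth as described, and counts were summed per library and class. Sums were tested in edgeR 4.0.16 on R 4.3.3 (filterByExpr, TMM, robust quasi-likelihood fit, Benjamini-Hochberg at 0.05), negative against high with the library as a block, and each class against the 6 uninjured sums without one, because replicate numbers of injured and uninjured libraries share only a label. Correlations of same-numbered deviations were 0.05, 0.13 and 0.11 for negative and high sums and 0.02, 0.05 and 0.08 for negative and uninjured sums. Atf3 was removed before testing. DESeq2 1.42.0 and other settings served as alternatives. Python 3.11.15, numpy 2.4.6, scipy 1.17.1, pandas 2.3.3 and matplotlib 3.10.9 were used. Genes were named by rule: called members of the axon injury, AP-1 and identity lists, at most 4 called members of each other list, the 10 largest rises and falls among called genes averaging 5 or more in log2 CPM and moving 1 way in all 3 libraries, the 5 largest of each against uninjured cells without overlap between samples, and 8 fixed genes, 106 in all. Gene names outside it (Atf4, list members and markers) were chosen after their values were seen. Members and lists were chosen with earlier results of these data known.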

Additional observations from a re-analysis of the deposited data

Results flagged for a closer look

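In 111 groups of 6 uninjured libraries tested for a library far from the rest, 6 were singled out, where chance gives about 1 in 20. Uninjured 1 stood apart with 38.98 CPM of Pou4f2, 45.4 CPM of Rasgrp1 and 49.6 CPM of Igf1. Uninjured 3 stood apart with 69.5 CPM of Gpc5, and uninjured 4 with 0.562 CPM of Glis3 and 2.64 CPM of Atf3. Outside the comparisons, the repeat capture injured 4 held 796 CPM of Atf3, above every uninjured library, and 9.75% of its cells at 8000 UMIs or more had no Atf3 UMI.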

How the results depend on the processing

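Negative against high was refitted under 22 alternatives. The count of 2459 genes moved by over 1.5-fold with DESeq2 (1319), without injured 3 (1585, and up to 1979 without another library) and in the fits added after seeing the data, without Opn4 cells (1102) and with Ecel1 cells alone (215). Plain library totals gave 2451 genes but 1591 higher and 860 lower, as they shift the median of all genes to 0.11. Without the replicate block 2295 passed. Against uninjured cells, with 27 alternatives, 2417 became 1293 with at least 10 UMIs in every summed sample, 971 with libraries summed to 3 uninjured and 2 injured, 993 to 1785 without 1 injured library and 2132 to 2383 without 1 uninjured library. Using libraries 1 to 3 alone gave 2086 with a replicate block and 2278 without, and the median without a filter was -0.60. DESeq2 gave 6424 for high against uninjured (added).

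Of 92 named genes called in negative against high, 20 were called in every alternative that tested them, and of 54 against uninjured, 29 were. Directions turned for Opn4 (-0.0557 without Opn4 cells), Adcyap1 (-0.462 there and -1.34 with Ecel1 cells alone), Fos (-0.60), Junb (-0.56) and Pou3f1 (0.0134) with Ecel1 cells alone, Spp1 (0.22 without cells of other classes), Sncg (0.0239 thinned, 0.16 without cells of other classes, 0.0136 without cells low in ribosomal UMIs) and Xist (-0.000974 unfiltered, -0.00928 with the high class from 3 per 10000, -0.0251 to 0.205 without 1 library). Against uninjured they turned for Tubb3 (-0.00119 to 0.522 without 1 library, -0.16 without Opn4 cells), Eomes (-0.35 without Opn4 cells) and Slc17a6 (0.0245 thinned, 0.13 without Opn4 cells). The causes were not tested. Depth limits the genes at 0: the negative sums held 293229, 262034 and 694572 UMIs, so a gene at 0 in all of them could lie below 11.4 CPM in the shallowest.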

Other observations

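Of the 1654 uninjured cells at 8000 UMIs or more, 1 passed the threshold of the high class. It came from uninjured 4, held 15 of the 61 Atf3 UMIs of that library (10.8 per 10000), and was also the only uninjured cell with at least 2 Ecel1 UMIs per 10000. Among its 13890 UMIs were 12 of Ecel1, 17 of Jun, 8 of Sox11 and 35 of Gap43, with 0 of Sprr1a and 2 of Rbpms.

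In the repeat capture, injured 4, of the 35 negative cells 13 were Opn4 cells (37.1%), 10 were Ecel1 cells (28.6%) and 12 held neither (34.3%), while 0 of its 201 high cells were Opn4 cells, which allows a share of up to 1.49%, and 192 were Ecel1 cells (95.5%). Cells low in ribosomal UMIs numbered 14 of the 35 negative cells.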
